A study of Mus musculus with 50 samples.

Results

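Nes, Otx2, Pax6, Stmn2, Tubb3, Map2 and Gap43 are 7 genes in common use as markers of neural progenitors and neurons, and they were followed here through 8 RNA-seq libraries of a study of Xist Repeat B. They were picked by name, with earlier results of these data known, and all 7 were found among the 24391 genes of the deposited count tables. Xist is the long noncoding RNA that coats and silences one X chromosome of female cells, and Repeat B is the stretch of it needed to recruit Polycomb complexes. The embryonic stem (ES) cell libraries came from wild type, Repeat B +/- and Repeat B -/- cells, 2 of each, differentiated for 4 days as embryoid bodies and for 10 more days after plating. The mouse embryonic fibroblast (MEF) libraries came from wild type cells and from cells labelled for loss of Repeat B, 1 of each. All groups come from a cross of the strains CAST/Ei and 129/Sv/Jae, so reads over sequence differences can be assigned to the 129 or the CAST allele. The groups are written below as RepB+/-, RepB-/- and, for MEFs, RepB. Whether the 2 libraries of a group came from different cultures, and whether a mutant line is 1 clone, is not in the labels; p-values therefore cover only the spread seen between these libraries. The other 42 samples of the series are not analysed here.

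As background, neural tissue forms from ectoderm where bone morphogenetic protein signals are blocked, and it is then patterned by homeobox factors. Otx2 is a homeobox factor of the epiblast and later of the forebrain and midbrain, and Pax6 is a paired-box factor of the forebrain, spinal cord and eye. Nes encodes nestin, an intermediate filament protein of neural progenitors that muscle precursors, endothelium and cultured fibroblasts also make. Neurons then turn on Tubb3 (neuronal class III beta-tubulin), Map2 (a dendritic microtubule-associated protein), Stmn2 (a tubulin-binding stathmin of growing axons) and Gap43 (a growth cone membrane protein). Polycomb complexes hold many such developmental genes silent in other cells.

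The libraries held between 8000722 and 28045645 reads counted over genes, and 26.7% to 28.0% of those reads carried an allele. RepB+/- replicate 2 was the shallowest. Xist was read at 782 to 1161 CPM (reads scaled by the total count of the library) in the ES libraries, and at 405 CPM in wild type and 526 CPM in RepB MEFs; a gene total does not show whether Repeat B is present, so it does not check the labels. Fibroblast markers were abundant in both MEF libraries, except that Thy1 was at 9.65 CPM in wild type and at 0 in RepB MEFs.

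The promoters of the genes whose level differed between genotypes in ES cultures are shown because these genes moved in opposite directions; they run from 250 bases before to 50 bases after the first RefSeq start in GRCm38.p6, 5′ to 3′. Of the 7 genes, 5 had an entry in the RefSeq promoter table, with 9 starts in all; the other two are Stmn2, which rose, and Gap43. Capitals mark, on either strand, the letters of a TATA box (TATAAA), of a CCAAT box (CCAAT) or of a GC box (GGGCGG). Nes and Otx2, which rose, come first, followed by Pax6 and Tubb3, which fell.
Nes, chr3:87970843-87971142, plus strand: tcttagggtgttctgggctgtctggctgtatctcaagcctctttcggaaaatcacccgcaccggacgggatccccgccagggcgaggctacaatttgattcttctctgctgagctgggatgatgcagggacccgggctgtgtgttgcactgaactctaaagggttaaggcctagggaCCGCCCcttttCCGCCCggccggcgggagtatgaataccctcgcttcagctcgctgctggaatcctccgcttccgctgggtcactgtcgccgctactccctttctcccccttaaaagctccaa
Otx2, chr14:48667595-48667894, minus strand: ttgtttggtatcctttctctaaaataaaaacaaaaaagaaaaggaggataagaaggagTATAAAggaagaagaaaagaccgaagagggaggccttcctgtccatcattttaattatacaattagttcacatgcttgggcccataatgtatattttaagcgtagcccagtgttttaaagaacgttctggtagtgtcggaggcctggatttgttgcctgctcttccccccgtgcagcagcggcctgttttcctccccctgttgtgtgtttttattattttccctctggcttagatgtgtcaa
Pax6, chr2:105668646-105668945, plus strand: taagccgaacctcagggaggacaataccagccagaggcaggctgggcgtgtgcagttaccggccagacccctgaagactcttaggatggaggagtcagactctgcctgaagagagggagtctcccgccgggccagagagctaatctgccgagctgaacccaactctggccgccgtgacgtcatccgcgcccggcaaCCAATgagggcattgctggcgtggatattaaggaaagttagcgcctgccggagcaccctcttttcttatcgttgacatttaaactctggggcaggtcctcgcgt
Tubb3, chr8:123411303-123411602, plus strand: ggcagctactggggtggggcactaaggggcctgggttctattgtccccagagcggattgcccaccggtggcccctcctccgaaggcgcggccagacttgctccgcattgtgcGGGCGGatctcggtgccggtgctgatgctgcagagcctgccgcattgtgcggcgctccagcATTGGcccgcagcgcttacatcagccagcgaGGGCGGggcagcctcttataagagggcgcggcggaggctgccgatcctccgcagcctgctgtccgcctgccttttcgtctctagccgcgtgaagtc

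The 4 windows differed in composition. Otx2 held 41.7% G and C, 6 CpG and 1 TATAAA, while Tubb3 held 67.3% G and C, 26 CpG, 1 CCAAT and 2 GGGCGG. Nes had 58.7% G and C, 18 CpG and 2 GGGCGG, and Pax6 had the same G and C share and CpG count with 1 CCAAT. Over all 32851 promoters of the table the median was 52.7% G and C and 7 CpG, and 13.6% held TATAAA, 37.4% CCAAT and 35.7% GGGCGG. These are matches of letters at the first start of each gene, not sites.

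In the count tables, built on mm9, each gene carries a single interval that is shorter than its summed exons and so does not span the gene. The interval listed for Nes is chr3:87775015-87775910, and that for Stmn2, on the same chromosome, is chr3:8509527-8509630. Otx2 is listed at chr14:49277352-49279001, Pax6 at chr2:105509053-105509206, Tubb3 at chr8:125935464-125935562, Map2 at chr1:66221903-66222069 and Gap43 at chr16:42248674-42249227. All 7 genes are autosomal, so none lies on the chromosome that Xist silences.

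The first question was how far these cultures hold neural RNA. Per kb of exon, which allows genes to be compared, Gap43 was the highest of the 7 in wild type ES cultures, at 25.2 CPM per kb, followed by Tubb3 at 17.3, Nes at 11.6, Stmn2 at 4.78 and Otx2 at 1.77. Map2, at 0.559, and Pax6, at 0.432 CPM per kb, came last, and the ranges of that last pair overlapped between libraries. In RepB+/- cultures Nes was first, at 24.8 CPM per kb, ahead of Gap43 at 21.2, and in RepB-/- cultures Gap43 at 22.4 and Nes at 20.5 overlapped. Tubb3 and Stmn2 overlapped in both RepB genotypes, at 12.2 and 10.4 CPM per kb in RepB+/- and 11.9 and 9.40 in RepB-/-. The lower end kept Otx2 above Map2 above Pax6 in both RepB genotypes.

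MEFs gave another order. In the wild type library Tubb3 stood at 47.3 CPM per kb, Nes at 20.4, Map2 at 15.5, Stmn2 at 3.38 and Gap43 at 1.33, and Otx2 and Pax6 had 0 reads. In the RepB library Map2 came first at 15.4 CPM per kb, then Tubb3 at 13.5, Nes at 12.9, Gap43 at 0.619 and Stmn2 at 0.113, with Otx2 and Pax6 again at 0 reads. Other neural markers were mixed in MEFs: 11 of 21 neural tube and forebrain transcription factors and 11 of 19 synapse and neuronal RNA-binding genes were at 0 in the wild type library, and 13 and 12 in the RepB library. Others were read at high levels, such as Zic1, at 91.7 CPM in wild type and 82.0 CPM in RepB MEFs, Dclk1, at 306 and 261 CPM, and Ebf3, at 51.6 and 64.2 CPM. Of 10 neural tube and forebrain factors compared, 5 were lower in wild type ES cultures than in wild type MEFs by 2-fold and 3 were higher. Dcx, Elavl3 and Rbfox3, markers of young and mature neurons, had 0 reads in both MEF libraries; the genes of these sentences were chosen after their values were seen. In bulk RNA, fewer cells of a type and less RNA per cell cannot be told apart.

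Wild type ES cultures and wild type MEFs differed by 2-fold or more, in both ES libraries against the single MEF library, for 6 of the 7 genes: 3 were higher and 3 lower in ES cultures. Of all 13392 genes compared, 23.7% were higher and 13.5% lower by this rule, and there is no test with 1 MEF library. The comparison took genes averaging 1 CPM or more over the libraries compared. Otx2 and Pax6, with 0 reads in the MEF library, passed only through the ES libraries and could only count as higher. The count of 3 higher therefore supports nothing by itself. Gap43 was 15.0-fold higher in ES cultures. Against the floor of 3 reads in the MEF library, after the same scaling, Otx2 was at least 15.9-fold and Pax6 at least 6.78-fold higher. Map2 was 33.6-fold, Tubb3 3.26-fold and Nes 2.08-fold lower in ES cultures, and Stmn2, at a ratio of 1.18, was within 2-fold. Scaling by total counts in place of the trimmed mean of M values (TMM) moved the median of all genes by 0.25 on the log2 scale; the log2 difference of Nes was then -0.81 in place of -1.06, inside 2-fold.

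**Figure D1:**
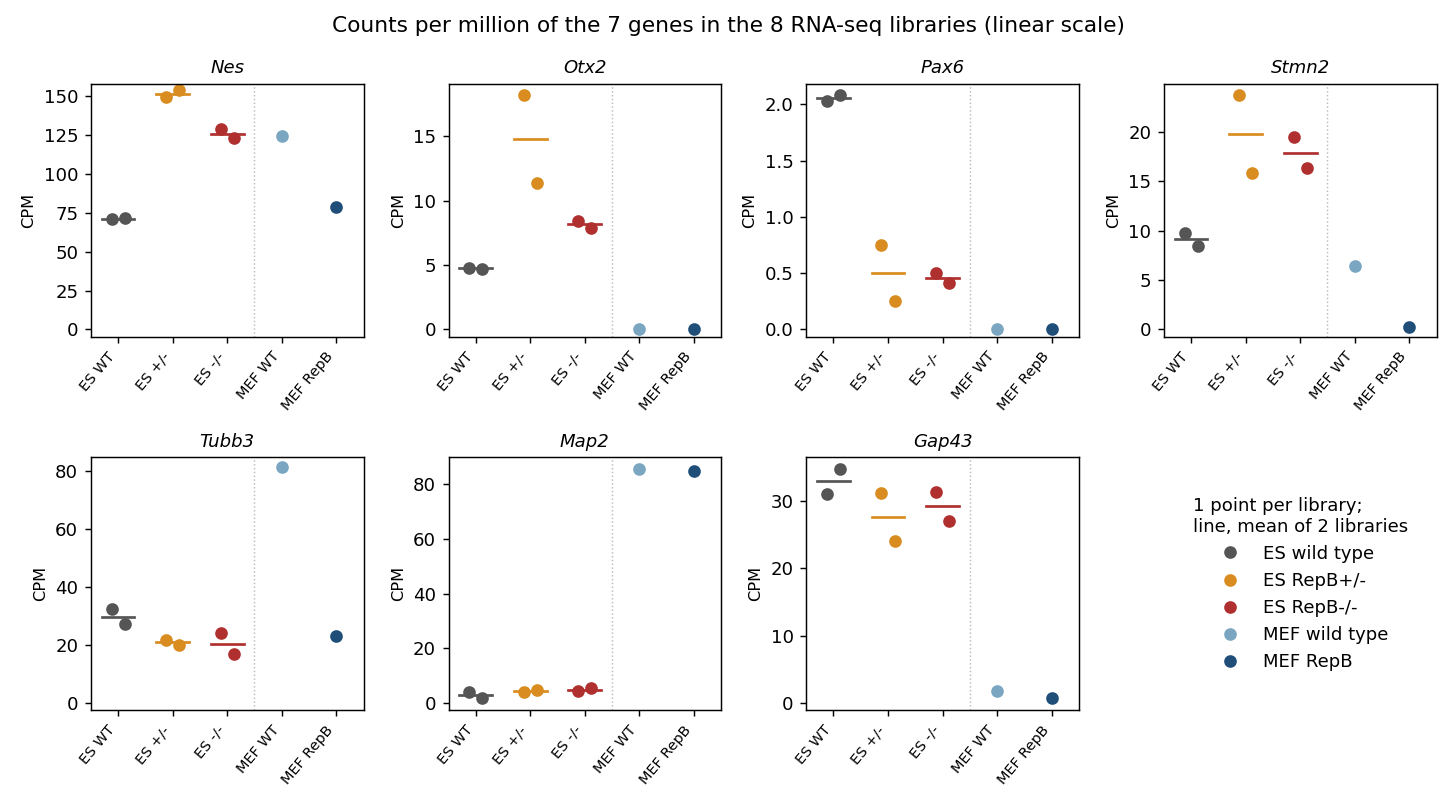
Level of each gene in CPM (y axis, linear) in the 8 libraries, by group (x axis); each point is 1 library and each line the mean of 2. Nes, Otx2 and Stmn2 lie higher in both RepB groups of ES cultures than in wild type, Pax6 and Tubb3 lie lower, and Otx2 and Pax6 are at 0 in MEFs.

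The second question was whether loss of Repeat B on one or both alleles changed these genes in differentiated ES cultures. Nes, Otx2 and Stmn2 rose and Pax6 and Tubb3 fell in both RepB+/- and RepB-/- cultures against wild type, whereas Map2 and Gap43 did not pass the test. Each test was edgeR's quasi-likelihood F-test over the 6 ES libraries with Benjamini-Hochberg adjustment over all 15149 genes tested. In RepB+/- cultures 3 members rose, against 9.12% of all genes, and 2 fell, against 6.84%. In RepB-/- cultures 3 rose, against 7.27% of all genes, and 2 fell, against 5.49%. The 2 contrasts share their wild type libraries and so are not independent of each other. All 7 members passed the filter on low counts, Pax6 only narrowly: it reached the minimum of 0.484 CPM in both wild type libraries but in 1 RepB+/- and 1 RepB-/- library.

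Nes, the progenitor filament gene, was read at 70.9 and 71.5 CPM in the wild type libraries, at 149.6 and 154.1 CPM in RepB+/- libraries and at 128.8 and 123.0 CPM in RepB-/- libraries. The 3 genotypes did not overlap, and the 2 libraries of each lay close together. Against wild type, RepB+/- cultures differed by 1.02 on the log2 scale (SE 0.11, adjusted p = 2.96e-05) and RepB-/- cultures by 0.74 (SE 0.11, adjusted p = 0.000338), which is 2.03-fold and 1.67-fold. Both calls held in all alternatives, the removal of any 1 library included.

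Otx2 stood at 4.78 and 4.72 CPM in the wild type libraries, at 18.2 and 11.4 CPM in RepB+/- libraries and at 8.45 and 7.85 CPM in RepB-/- libraries. The groups did not overlap, and the RepB+/- pair was the widest apart. On the log2 scale RepB+/- cultures differed by 1.60 (SE 0.21, adjusted p = 0.000162), and RepB-/- cultures by 0.70 (SE 0.21, adjusted p = 0.0388). The RepB-/- call did not hold with DESeq2 (adjusted p = 0.0775) or after removal of any 1 of the 4 libraries compared (adjusted p from 0.118 to 0.175), and the RepB+/- call held throughout.

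Stmn2, the axonal stathmin, was read at 9.81 and 8.40 CPM in the wild type libraries, at 23.7 and 15.9 CPM in RepB+/- libraries and at 19.5 and 16.3 CPM in RepB-/- libraries. Every RepB library lay above both wild type libraries, and the 2 RepB genotypes overlapped. RepB+/- cultures differed by 1.06 on the log2 scale (SE 0.18, adjusted p = 0.00107), RepB-/- cultures by 0.89 (SE 0.17, adjusted p = 0.00357), and both calls held in all alternatives.

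Pax6 was the lowest member, with 40 and 26 reads in the wild type libraries, 20 and 2 reads in RepB+/- libraries, then 14 and 9 reads in RepB-/- libraries. In CPM these were 2.03 and 2.08, then 0.747 and 0.250, then 0.499 and 0.416, so that both RepB groups lay below wild type without overlap. Its log2 difference was -1.86 in RepB+/- cultures (SE 0.46, adjusted p = 0.0129) and -2.22 in RepB-/- cultures (SE 0.44, adjusted p = 0.00382). The RepB+/- call did not hold when either wild type library was removed (adjusted p = 0.0664 and 0.0812), nor the RepB-/- call when either RepB-/- library was (adjusted p = 0.0551 and 0.0700).

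Tubb3 was read at 32.3 and 27.2 CPM in the wild type libraries, at 21.9 and 20.1 CPM in RepB+/- libraries and at 24.2 and 16.9 CPM in RepB-/- libraries. Both RepB groups lay below wild type, though the lower wild type and the higher RepB-/- library were only a little apart. The log2 difference was -0.58 in RepB+/- cultures (SE 0.16, adjusted p = 0.0225) and -0.62 in RepB-/- cultures (SE 0.15, adjusted p = 0.0155). The RepB+/- call did not hold when either wild type library (adjusted p = 0.147 and 0.0561) or RepB+/- replicate 1 (adjusted p = 0.0694) was removed. The RepB-/- call did not hold when wild type replicate 1 (adjusted p = 0.131) or RepB-/- replicate 2 (adjusted p = 0.176) was removed.

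Map2 was at 4.17 and 2.00 CPM in the wild type libraries, at 4.22 and 4.87 CPM in RepB+/- libraries and at 4.39 and 5.45 CPM in RepB-/- libraries. In CPM both RepB groups lay above wild type by a margin smaller than the gap inside the wild type pair. The test scaled the libraries by TMM, with factors of 0.985 for wild type replicate 1 and 1.06 for RepB+/- replicate 1. On that scale these libraries changed order, and the RepB+/- group overlapped wild type. The log2 difference was 0.40 (95% interval -0.26 to 1.06, adjusted p = 0.408) in RepB+/- and 0.54 (95% interval -0.09 to 1.16, adjusted p = 0.254) in RepB-/- cultures.

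Gap43 was at 31.0 and 34.7 CPM in the wild type libraries, at 31.2 and 24.0 CPM in RepB+/- libraries and at 31.2 and 27.02 CPM in RepB-/- libraries. In CPM the groups overlapped in both contrasts, though not after the TMM scaling that the test used. Its log2 difference was -0.31 (95% interval -0.60 to -0.02, adjusted p = 0.133) in RepB+/- and -0.25 (95% interval -0.53 to 0.03, adjusted p = 0.230) in RepB-/- cultures. These intervals are not adjusted for the number of genes, and a change of 1.5-fold down lies within the first.

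**Figure D2:**
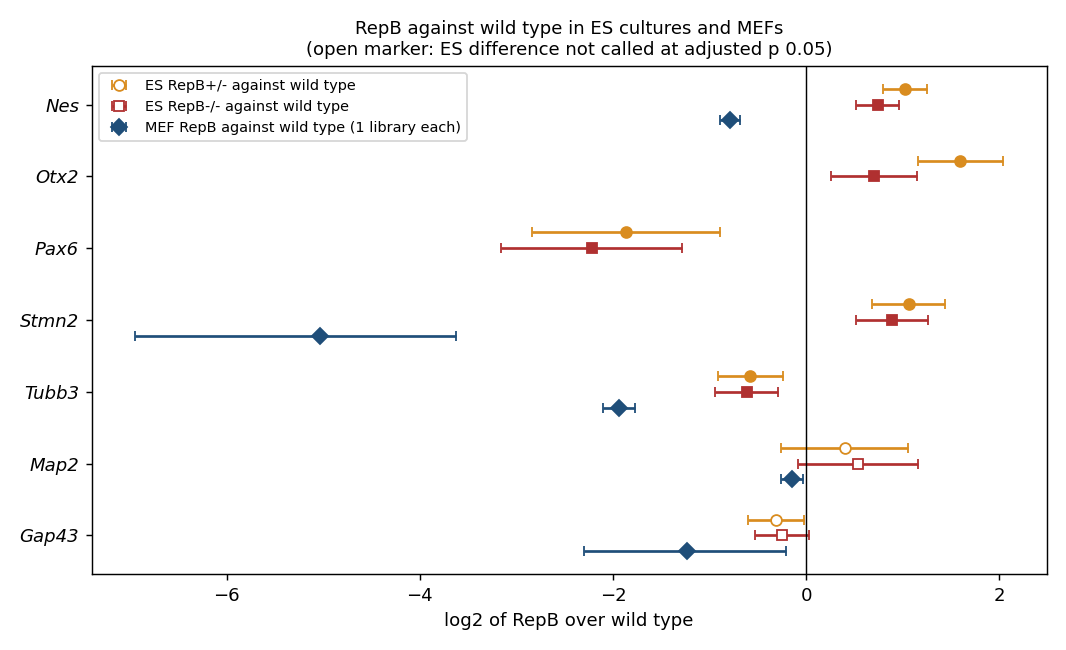
Log2 of RepB over wild type (x axis) for each gene (y axis), with 95% intervals; circles and squares are the ES fits, open where not called, and diamonds are the MEF read ratio with its exact counting interval. Nes and Stmn2 lie to the right of 0 in ES cultures and to the left in MEFs, and Tubb3 lies to the left in all 3.

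RepB-/- and RepB+/- cultures, which differ by label in the second allele, were then compared with each other. The 129 share of allelic Xist reads was 97.8% and 97.2% in RepB+/- libraries, so few of these reads came from CAST. It was 89.2% and 87.2% in RepB-/- libraries. How much Xist RNA carried Repeat B in either genotype was not tested. None of the 7 genes was called, against 0.0198% of all genes that rose and 0.066% that fell. These shares are of adjusted calls. No share of all genes is given here for an unadjusted limit, so the count that follows supports nothing by itself. With edgeR, 2 members had an unadjusted p under 0.05, and DESeq2 also gave 2. These were Otx2, with a log2 difference of -0.90 (95% interval -1.30 to -0.50, unadjusted p = 0.000238, adjusted p = 0.109), and Nes, with -0.28 (95% interval -0.50 to -0.06, unadjusted p = 0.0162, adjusted p = 0.575). Both were lower in RepB-/- than in RepB+/- cultures in each pair of libraries. Otx2 was called with no filter on low counts (adjusted p = 0.000705), and also on removing RepB+/- replicate 2, at an adjusted p of 0.0119. For the other 5 the widest 95% interval was that of Pax6, from -1.48 to 0.76 on the log2 scale, and the narrowest that of Gap43, from -0.23 to 0.34.

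Close relatives of these genes held calls in both directions and many without a call. Of 2 testable relatives of Stmn2, Stmn1 had log2 differences of 0.41 (adjusted p = 0.140) in RepB+/- and 0.27 (adjusted p = 0.342) in RepB-/- cultures, while Stmn4 fell, with log2 differences of -2.41 (SE 0.48, adjusted p = 0.00360) and -1.93 (SE 0.42, adjusted p = 0.00667), from 2.26 ± 0.315 CPM (SD, n = 2) in wild type. The RepB-/- call of Stmn4 did not hold when replicate 2 of wild type (adjusted p = 0.0777) or of RepB-/- (adjusted p = 0.114) was removed. Of 6 relatives of Tubb3, 1 fell in each contrast: Tubb4a, named because it was the only call, with log2 differences of -0.69 (SE 0.12, adjusted p = 0.000977) and -0.53 (SE 0.11, adjusted p = 0.00550). Its RepB-/- call did not hold when replicate 2 of wild type (adjusted p = 0.0679) or of RepB-/- (adjusted p = 0.0807) was removed. The most abundant tubulins, Tubb5 and Tubb4b, were not called, and reads shared between such similar genes could be assigned either way by the counting.

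Among the relatives of Nes, Vim was not called in either contrast (RepB+/- adjusted p = 0.195, and 0.0152 without RepB+/- replicate 2), and Des fell in RepB+/- cultures, with a log2 difference of -0.63 (SE 0.14, adjusted p = 0.00670; 0.145 without wild type replicate 2). Ina, a neuronal intermediate filament gene, rose in RepB+/- cultures by a log2 difference of 1.25 (SE 0.36, adjusted p = 0.0265), but not without wild type replicate 2 (adjusted p = 0.208) or RepB+/- replicate 1 (adjusted p = 0.103). Gsc, a homeobox gene of the primitive streak related to Otx2, rose in RepB+/- cultures by a log2 difference of 1.28 (SE 0.34, adjusted p = 0.0189), and Otx1 was not called. The call of Gsc did not hold with DESeq2 (adjusted p = 0.0510), nor when wild type replicate 2 (adjusted p = 0.147) or RepB+/- replicate 1 (adjusted p = 0.136) was removed. Pax2 and Pax8 were not called; of the relatives of Map2, Map4 was not called and Map1b fell, with log2 differences of -0.46 (SE 0.12, adjusted p = 0.0177) and -0.57 (SE 0.12, adjusted p = 0.00553); without wild type replicate 2 neither call held (adjusted p = 0.168 and 0.0890). Map1a, another relative of Map2, rose, with log2 differences of 0.56 (SE 0.14, adjusted p = 0.0138) and 0.55 (SE 0.14, adjusted p = 0.0170), and neither call held without wild type replicate 1 (adjusted p = 0.118 and 0.140) or 2 (adjusted p = 0.0641 and 0.0753). Removing replicate 2 of the RepB genotype itself also ended each Map1a call (adjusted p = 0.0644 and 0.224). Basp1 and Marcksl1, membrane proteins related to Gap43, were not called. Nrgn, which encodes the calmodulin-binding protein neurogranin, rose by 1.05 on the log2 scale in each contrast (adjusted p = 0.0304 and 0.0269), and neither call held without wild type replicate 1 (adjusted p = 0.0640 and 0.0636) or 2 (adjusted p = 0.181 and 0.194). The Nrgn call also ended on removing RepB+/- replicate 2 (adjusted p = 0.116) in RepB+/-, and RepB-/- replicate 1 or 2 (adjusted p = 0.127 and 0.108) in RepB-/- cultures. Ina, Map1a and Nrgn were named because they were called.

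The wider neural programme was read from 7 lists of 106 genes. In RepB+/- cultures 16 of the 79 tested genes rose and 8 fell, with a median log2 difference of 0.06 against 0.02 over all genes; in RepB-/- cultures 8 rose and 11 fell, with a median of -0.10 against 0.01. Removing 1 library left 7 to 14 genes that rose and 2 to 12 that fell in RepB+/-, and 3 to 10 and 4 to 15 in RepB-/- cultures. Over all genes 9.12% rose and 6.84% fell in RepB+/-, and 7.27% and 5.49% in RepB-/- cultures, the shares against which the counts of each list below are to be read. The lists held genes that moved each way, as the 7 members did.

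Among 15 neural tube and forebrain transcription factors, 5 rose and 3 fell in RepB+/- and 2 rose and 3 fell in RepB-/- cultures. Zic2, a zinc finger factor of the epiblast and neural plate, rose from a wild type level of 5.49 ± 0.863 CPM (SD, n = 2) to 17.1 ± 1.18 CPM in RepB+/- cultures, a log2 difference of 1.55 (adjusted p = 6.80e-05). Six3, a forebrain and eye factor, fell: the wild type level was 1.96 ± 0.618 CPM, that of RepB+/- cultures 0.406 ± 0.310 CPM and that of RepB-/- cultures 0.125 ± 0.176 CPM (adjusted p = 0.0149 and 0.00235). The RepB+/- call of Six3 did not hold when wild type replicate 2 (adjusted p = 0.124) or RepB+/- replicate 1 (adjusted p = 0.205) was removed.

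Of 10 progenitor and radial glia genes, Sox2 was the only one that rose in each contrast. Sox2, a factor shared by pluripotent cells and neural progenitors, had a wild type level of 26.5 ± 4.61 CPM (SD, n = 2), with 85.6 ± 11.1 CPM in RepB+/- cultures and 60.0 ± 5.20 CPM in RepB-/- cultures (adjusted p = 5.97e-06 and 0.000106). Nr2e1 fell in RepB-/- cultures (log2 difference -2.89, adjusted p = 0.0426), a call that did not hold when any 1 of the 4 libraries compared was removed.

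Of 10 proneural and neuron identity factors, 2 rose and 2 fell in RepB+/-, and 0 rose and 2 fell in RepB-/- cultures. Of 19 cytoskeleton and growth cone genes, 5 rose and 2 fell in RepB+/- and 4 rose and 3 fell in RepB-/- cultures. Nefh, the heavy neurofilament gene, rose from a wild type level of 1.24 ± 0.171 CPM (SD, n = 2) to 5.16 ± 0.408 CPM in RepB+/- and 3.69 ± 0.331 CPM in RepB-/- cultures (adjusted p = 0.000414 and 0.00345), and the RepB-/- call did not hold when wild type replicate 1 was removed (adjusted p = 0.0600). Dpysl5, a growth cone protein, fell from 28.5 ± 1.43 CPM to 16.9 ± 0.376 CPM in RepB-/- cultures (adjusted p = 0.000497).

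Of 16 synapse and neuronal RNA-binding genes, 2 rose in RepB+/- and 1 in RepB-/- cultures and 0 fell by edgeR. The one shared call was Syn1, the synaptic vesicle protein synapsin, an X-linked gene, with log2 differences of 1.70 (adjusted p = 7.31e-05) and 1.20 (adjusted p = 0.00102). Neither of 2 tested glial genes was called. Of 7 neural crest genes, 1 rose (Foxd3) and 1 fell (Tfap2a) in RepB+/- and 2 fell (Tfap2a and Tfap2b) in RepB-/- cultures. The RepB+/- fall of Tfap2a (adjusted p = 0.0460) did not hold with DESeq2 (adjusted p = 0.124), with only the 2 groups compared, or on removing any library other than RepB+/- replicate 2. Neither fall in RepB-/- cultures held without wild type replicate 1 (adjusted p = 0.0677 and 0.456) or RepB-/- replicate 1 (adjusted p = 0.108 and 0.195), and that of Tfap2b also ended with DESeq2 (adjusted p = 0.0630) and on removing RepB-/- replicate 2, at an adjusted p of 0.107.

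Regulators of the programme were counted too. Of 8 repressors of neuronal genes, 0 were called in RepB+/- cultures, and Id3 rose in RepB-/- cultures (log2 difference 0.49, adjusted p = 0.00539), a call that did not hold when replicate 1 of wild type (adjusted p = 0.0764) or of RepB-/- (adjusted p = 0.0615) was removed. Of 11 antagonists and ligands of neural induction, 4 rose and 1 fell in RepB+/- and 2 rose and 2 fell in RepB-/- cultures. Lefty1, a Nodal antagonist, rose by log2 differences of 2.39 and 2.31 (adjusted p = 1.26e-05 and 1.25e-05), and Bmp7 fell by 0.81 and 0.58 (adjusted p = 0.000263 and 0.00267); the RepB-/- call of Bmp7 did not hold when wild type replicate 2 was removed (adjusted p = 0.0570).

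Markers of other cell types moved in the same libraries. Of 7 pluripotency markers, 6 rose in each RepB genotype and Klf4 fell in RepB+/- cultures (log2 difference -0.51, adjusted p = 0.0128, and 0.203 without wild type replicate 2), and their summed level was 172 to 196 CPM in wild type, 368 to 571 in RepB+/- and 358 to 449 CPM in RepB-/- cultures. Of 6 tested epiblast markers, where Otx2 is also active, 5 rose in RepB+/- and 4 in RepB-/- cultures, where Pou3f1 fell (log2 difference -0.79, adjusted p = 0.0150, and 0.160, 0.0668 and 0.115 without wild type replicate 2, RepB-/- replicate 1 and RepB-/- replicate 2), and the sum was 51.4 to 59.1, 103 to 166 and 82.7 to 96.7 CPM. Cardiac muscle markers went down: 6 and 5 of 8 fell, and the sum went from 505 to 541 CPM in wild type to 261 to 267 in RepB+/- and 208 to 211 CPM in RepB-/- cultures. Of 7 endoderm and yolk sac markers 5 and 2 rose, and of 5 macrophage markers 4 and 5 rose. No marker of these 5 lists was at 0 in any ES group. Endothelial markers, in a tissue that can make Nes, gave 1 rise and 1 fall, then 2 falls, of 6. The part of these other cells in the level of the 7 genes was not tested.

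**Figure D3:**
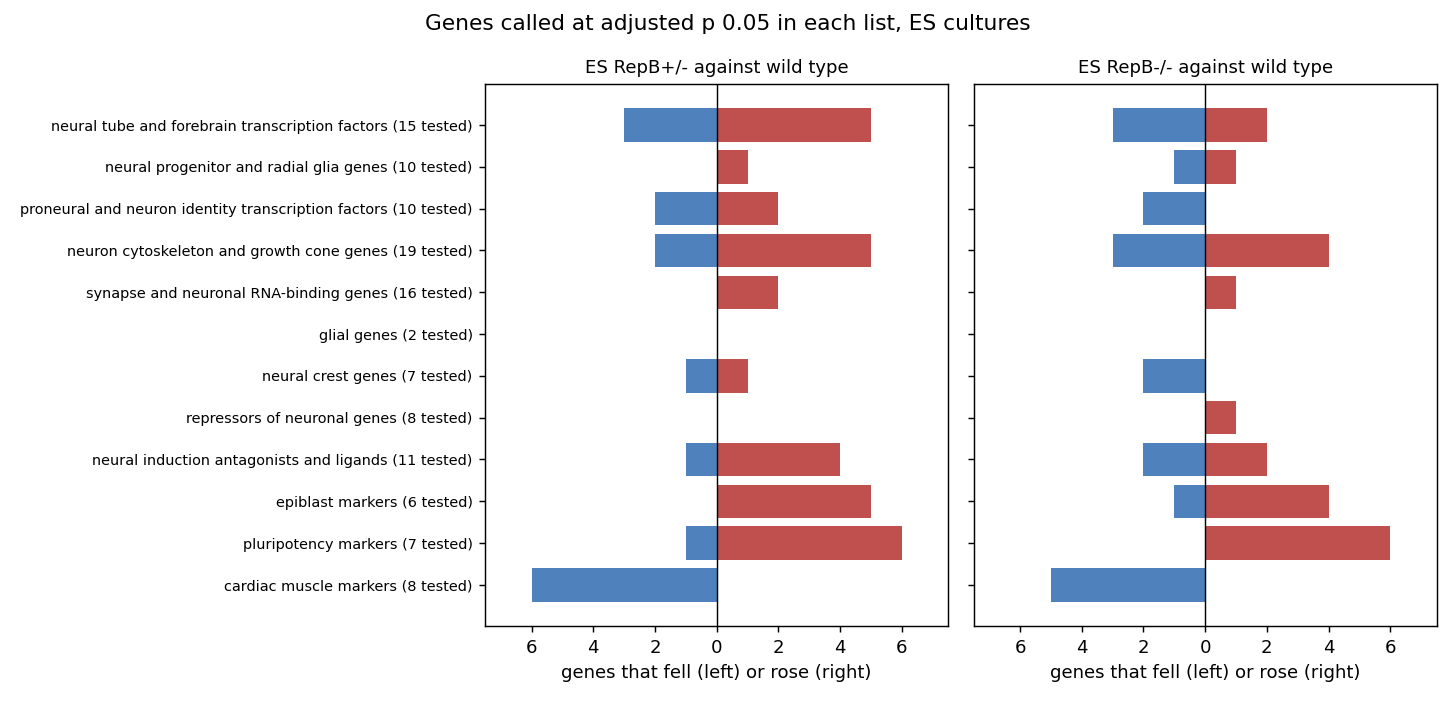
Number of genes called (x axis, fell to the left and rose to the right) in each list (y axis, with the number tested) for RepB+/- and RepB-/- ES cultures against wild type. Neural lists hold calls on both sides, pluripotency and epiblast lists mostly rises and the cardiac list falls.

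Across the 6 ES libraries, 2 patterns can be described. Nes, Otx2 and Stmn2 varied together, with Pearson r between 0.89 and 0.90 for each pair, and Nes and Pax6 varied oppositely, with r of -0.94. The genes with the pattern closest to Nes were Hnrnph2 (X-linked, r = 0.998) and Zfp672 (r = 0.997), to Stmn2 Dkc1 (X-linked, r = 1.00) and Gsta4 (r = 0.998), and to Otx2 Nop58 (r = 0.995) and Gldc (r = 0.994). Pax6 was closest to Nos1 (r = 0.998) and Dock9 (r = 0.998), Tubb3 to Nt5e (r = 0.993) and Mdfi (r = 0.989), Map2 to Slc16a10 (r = 0.990) and Zfp697 (r = 0.984), and Gap43 to Flad1 (r = 0.988) and Iars (r = 0.987). The search covered 11451 genes over the same 6 libraries in 3 genotypes, and between 21 genes (Map2) and 247 genes (Stmn2) reached an r of 0.95, so the closest genes are a description of these libraries.

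The third question was whether Repeat B loss in MEFs, a stable cell type, touched the same genes. There is 1 library per genotype, so ratios carry counting error only, with exact Clopper-Pearson 95% intervals that treat reads as independent molecules, and there is no test. Of the 5 members averaging 1 CPM or more over the 2 MEF libraries, 3 were lower by 2-fold or more in RepB MEFs, against 6.4% of the 11672 genes compared, and 0 were higher, against 3.35%. Stmn2 and Gap43 passed that limit only through the wild type library and could only count as lower, so the count of 3 supports nothing by itself; of Nes, Tubb3 and Map2, which passed in both libraries, Tubb3 was lower by 2-fold. Otx2 and Pax6 had 0 reads in both, where the floor of 3 reads is 0.247 CPM in the wild type library.

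Stmn2 showed the widest gap, with 78 reads (6.43 CPM) in wild type and 4 reads (0.215 CPM) in RepB MEFs, or 32.8-fold lower (95% interval 12.3 to 123). Tubb3 went from 81.6 to 23.2 CPM, 3.84-fold lower (95% interval 3.43 to 4.31). Gap43, at 21 and 15 reads, was 2.35-fold lower (95% interval 1.16 to 4.91). Nes went from 124.7 to 79.0 CPM, 1.73-fold lower (95% interval 1.61 to 1.86) and so inside the 2-fold limit, and Map2, at 85.7 and 84.7 CPM, was 1.11-fold lower (95% interval 1.02 to 1.20). Total-count scaling raised the median of all genes by 0.13 on the log2 scale, to 0.16. The log2 ratio of Map2 was then -0.02 and that of Gap43 -0.99, just inside 2-fold, which left 2 members lower by 2-fold. Of 33 genes of the neural lists kept in MEFs, 1 was higher and 12 were lower by 2-fold, with a median log2 ratio of -0.37 against 0.03 over all genes.

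Reads assigned to 129 and CAST show whether the reads of 1 or both alleles were lower. Whether the number of copies of either allele differed between the libraries was not tested. Nes, Tubb3 and Map2 had at least 20 allelic reads in both MEF libraries, and in all 3 the 95% intervals of the 129 share in RepB and wild type lay apart, against 22.3% of 8886 autosomal genes. For Nes the 129 share went from 54.0% (50.3 to 57.8) to 78.7% (75.4 to 81.6). Its CAST reads went from 26.7 to 8.05 CPM, 3.63-fold lower (95% interval 2.98 to 4.44), and its 129 reads from 31.4 to 29.7 CPM, 1.16-fold lower (1.01 to 1.32). The gap in Nes thus lay mostly in the CAST reads.

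Genes near Nes moved in the same direction by less. Within 10 Mb of Nes on chromosome 3 the median 129 share went from 51.2% to 60.6%, 43 of 133 genes had their intervals apart toward 129, and 5 had a change as large as the 24.6 points of Nes. The whole chromosome gave 50.6% and 60.4%, so a shift toward 129 ran across chromosome 3 in these 2 libraries. Chromosome 3 was not alone in this. The median of chromosome 7 went from 46.1% to 65.4%, that of chromosome 4 toward CAST from 57.0% to 34.1%, and chromosome 8 stayed at 50.4% and 50.6%. The share of 22.3% given above was taken over all autosomes, these included.

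Tubb3 moved the other way, from a 129 share of 49.8% (43.6 to 56.0) to 28.1% (20.1 to 37.3). Reads of both alleles were lower. The 129 reads went from 10.9 to 1.72 CPM, 6.94-fold lower (95% interval 4.69 to 10.6), and the CAST reads from 11.0 to 4.40 CPM, 2.73-fold lower (2.06 to 3.64). Its neighbours within 10 Mb on chromosome 8 had medians of 51.3% and 49.9%, 5 of 95 had intervals apart, and 4 had a change toward CAST as large as the 21.7 points of Tubb3.

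Map2 went from 54.0% (49.3 to 58.6) to 67.2% (63.2 to 71.1). Its 129 reads, at 20.5 and 20.4 CPM, were near level (1.10-fold lower, 0.933 to 1.29), and its CAST reads went from 17.5 to 9.98 CPM, 1.92-fold lower (1.57 to 2.35). Neighbours within 10 Mb on chromosome 1 had medians of 39.2% and 49.8%, and 23 of 85 moved toward 129 by at least the 13.2 points of Map2. Stmn2 had 16 allelic reads in wild type and 0 in RepB MEFs, and Gap43 8 and 4, too few for a share.

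**Figure D4:**
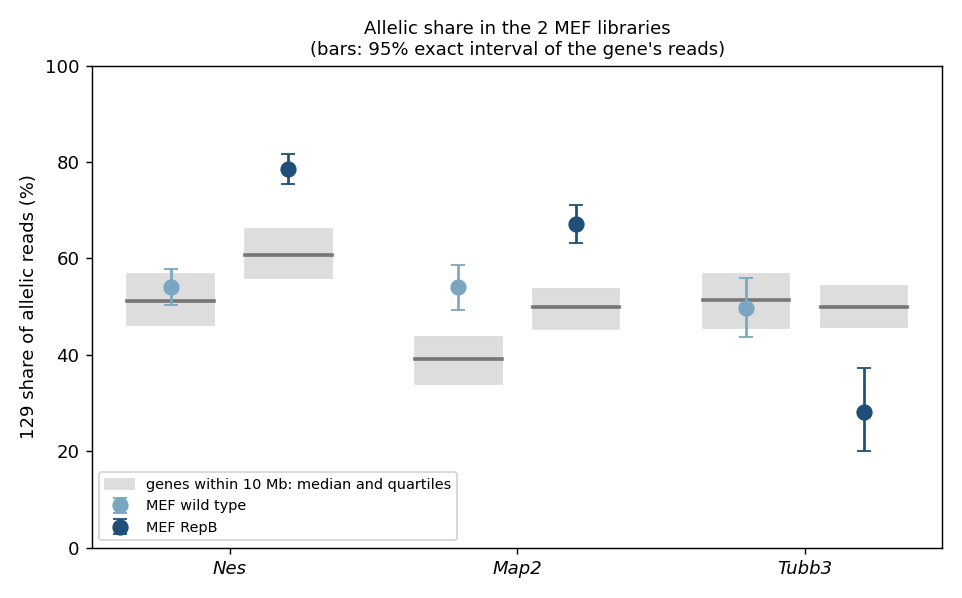
Share of allelic reads from the 129 allele (y axis, percent) for Nes, Map2 and Tubb3 in the wild type and RepB MEF libraries, with exact 95% intervals; grey boxes give the quartiles and the line the median of genes within 10 Mb. Nes and Map2 move up with their neighbours and end above them, and Tubb3 moves down to 28.1% while its neighbours stay near 50%.

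In ES cultures allele shares could not be used in the same way, because the median autosomal gene read 98.5% to 98.8% 129. Chromosomes differed in this. In wild type replicate 1 the medians of chromosomes 5, 7, 9 and 13 were 52.9%, 52.3%, 51.0% and 50.7%. None of the 7 genes lies on these chromosomes, and chromosome 8, which holds Tubb3, is given below. Nes had a CAST share of 0% to 1.11%, Gap43 of 0% to 0.800%, and Map2, Stmn2 and Pax6 had 0 CAST reads in all 6 libraries. Otx2 had 1 CAST read in all, of 23 allelic reads in RepB+/- replicate 1. The allelic reads of Nes, Stmn2 and Otx2 in ES cultures were therefore nearly all 129 reads in every genotype.

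Tubb3 stood apart there as well. Its CAST share was 13.9% and 7.06% in the wild type libraries, 16.4% and 8.89% for RepB+/- libraries and 11.8% and 12.9% for RepB-/- libraries, with 45 to 170 allelic reads a library and no separation by genotype. Genes within 10 Mb of Tubb3 had a median of 99.7% to 100% 129, and 3 to 7 of 103 to 120 had a CAST share as high. Chromosome 8 as a whole had medians of 42.6% to 47.5% 129 in the same libraries. Reads shared with other tubulin genes could enter either allele count, and their part in this share was not tested.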

How the data were processed

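The raw read counts per gene were deposited by the authors for 24391 genes, as total, 129 and CAST counts, with mm9 coordinates per the file headers. The submitters' processing notes name Novoalign, TopHat, SAMtools and featureCounts among the tools; their versions and the strand setting are not given in the sources used here. From these counts, CPM used each library's total. ES libraries were tested with edgeR 4.0.16 in R 4.3.3 (quasi-likelihood F-test, all 3 groups in 1 fit, TMM scaling, filterByExpr with a minimum count of 10 and total of 15, Benjamini-Hochberg adjustment over 15149 genes, threshold 0.05), a procedure tested on simulated counts. The SE is the log2 difference divided by the square root of F. MEF libraries were compared as read ratios after TMM scaling, for genes averaging 1 CPM or more over the libraries compared, with a 2-fold limit. The log2 values of MEF comparisons use a prior count of 2, and ratios with intervals use none. Allele shares required 20 allelic reads. Intervals and floors (3 reads) cover counting error only.

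Libraries were grouped by their titles. The members and gene lists were chosen with earlier results of these data known. Named list genes were taken from up to 3 called genes of lowest adjusted p per list and contrast, relatives from the 2 most abundant per member, and pattern neighbours from the 2 highest Pearson r among genes averaging 5 CPM. Read ratios per allele and ranks among neighbours were added after the values were seen. Alternatives were other scalings, DESeq2 1.42.0, no filter, fits of 2 groups, the replicate number as a block, and leaving out each library. Replicates of a group differed by more than sampling noise, so none was counted as a duplicate. Skeletal muscle (1 tested gene), eye (3) and pancreatic endocrine (0) lists gave no call, and the fibroblast list gave 2 rises and 1 fall of 6 in each RepB contrast. The values of 1 called list gene are not reported here.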

Additional observations from a re-analysis of the deposited data

Results flagged for a closer look

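Nes, Stmn2 and Map2 had a log2 difference in ES cultures opposite in sign to the log2 ratio in MEFs. For Nes and Stmn2 every RepB library of ES cultures lay above both wild type libraries. For Map2 this held in CPM but not after TMM scaling. In RepB+/- cultures the log2 difference from wild type was 1.02 for Nes, 1.06 for Stmn2 and 0.40 for Map2. In RepB-/- cultures it was 0.74 for Nes, 0.89 for Stmn2 and 0.54 for Map2. The MEF log2 ratios, with a prior count of 2, were -0.79 for Nes, -4.36 for Stmn2 and -0.15 for Map2. With 1 MEF library per genotype the difference between the cell types was not tested. Map2 was not called in ES cultures, and its MEF ratio was -0.02 with total-count scaling, so its pair of signs rests on values near 0.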

How the results depend on the processing

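The calls of Nes and Stmn2 against wild type held in all alternatives, and no result changed sign past its threshold. Leaving out 1 library gave 0 to 2 members that fell and 3 to 5 called in RepB+/-, and 0 to 2 that fell and 2 to 5 called in RepB-/- cultures, where 2 fell and 5 were called with all libraries. Between RepB-/- and RepB+/- cultures, where none was called, 1 member (Otx2) fell and was called with no filter on low counts (adjusted p = 0.000705), with the replicate block (1 called, adjusted p = 0.0161), and in the leave-one-out range of 0 to 1. The labels give replicate numbers but no shared source, and same-numbered libraries deviated together with correlations of 0.108, 0.0696 and 0.186; the block changed the count of all genes called in RepB-/- against wild type from 1101 and 832 to 1667 and 1493. No filter gave 50 rises and 74 falls over all genes between the RepB genotypes, against 3 and 10. Among the neural lists, DESeq2 called 3 falls in RepB+/- and 6 in RepB-/- cultures, against 8 and 11. The cause of these changes was not tested. With total counts in place of TMM, 2 members in place of 3 were past 2-fold between MEF genotypes, and 5 in place of 6 between ES cultures and MEFs; DESeq2 size factors and a prior count of 0.5 left both counts as they were. Of 836 counts recomputed under an alternative, 687 stayed within that range or on their side of the threshold, 105 became weaker and 44 stronger. Depth limited Pax6, read 2 to 40 times a library, and Stmn2 and Gap43 in MEFs, read 4 to 78 times. With 2 libraries against 2, an exact permutation test of 1 gene cannot go below p = 0.333.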
